A study of Homo sapiens with 12 samples.

Results

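The genes described here encode chains of the collagens and laminins of basement membrane, measured in head and neck cancer cell lines and in sublines selected for invasion through a basement membrane extract. The members were 10 named genes, COL4A1, COL4A2, COL4A5, COL4A6, COL7A1, COL17A1, LAMA5, LAMB1, LAMC1 and LAMB3, each represented by every probe set (a group of array probes read out as 1 value) whose only gene symbol in the platform's probe table was that gene. Of the 10 genes, 9 had such a probe set, out of 11963 genes on the array, and they had 16 probe sets in all. COL17A1, a transmembrane collagen of hemidesmosomes, had none in that table and was not analysed here. Total RNA was measured on 12 Affymetrix arrays that form 6 groups of 2. The groups were the Invasion subline and the Parent cell of the HNC-Detroit, HNC-Fadu and HNC-OECM1 cell lines. The sublines were obtained with a Matrigel invasion method, and the labels attach the same statement on Matrigel to the parents, name no other agent and do not say whether duplicate arrays came from separate cultures. P-values therefore measure only the spread between these arrays, which may be technical. Fadu cells derive from a hypopharyngeal and OECM1 cells from an oral squamous carcinoma, and the labels do not say which line named Detroit was grown.

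Basement membranes are thin sheets of matrix under epithelia, built from a laminin polymer on the cell side and a collagen IV network joined to it by nidogen and perlecan. Laminins are trimers of an alpha, a beta and a gamma chain, and collagen IV molecules are trimers of alpha chains that are folded in the endoplasmic reticulum before export. In stratified squamous epithelium, hemidesmosomes bind a laminin that holds the LAMB3 chain, and anchoring fibrils of COL7A1 tie this sheet to the tissue beneath. Matrigel, the selecting barrier, is itself an extract rich in laminin and collagen IV from a mouse tumour.

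All values are log2 expression values from RMA (robust multi-array average), and array medians lay between 4.92 and 5.06. A difference of 1 is therefore a 2-fold difference, and low values are compressed. A probe set was tested if at least 2 arrays lay above a log2 value of 4.52, the 40th percentile of all values, which kept 15 of the 16 member probe sets and 15124 probe sets in all. The probe set left out was 210945_at of COL4A6, whose highest array read 4.06. The arrays are of bulk cultures, in which fewer cells of a kind and less RNA per cell cannot be told apart.

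The arrays labelled Detroit invasion subline stood apart from their label. Across the 15124 probe sets, which are not independent replicates, their mean correlated with the Fadu parent at r = 0.965 and with the Detroit parent at r = 0.893, whereas the Fadu subline and its parent had r = 0.980 and the OECM1 pair had r = 0.973. Every Detroit result below compares the groups as labelled. Squamous markers were present in all groups, with 4 to 6 of 6 measured markers above 4.52 on both arrays. KRT14, a basal keratin, averaged 4.05 in the Detroit parent and 3.95 and 4.42 in the OECM1 subline and parent, under that limit. Of markers of other cell types, 1 to 4 of 7 fibroblast, 0 to 1 of 5 endothelial and 0 to 1 of 3 leukocyte markers lay above 4.52 on both arrays of a group. LUM, COL3A1, PECAM1, CDH5 and PTPRC lay below it on all 12 arrays. COL1A2, a fibrillar collagen gene, averaged 6.92 in the Detroit parent, against 4.60 to 4.73 in the other groups. The duplicates of the Detroit parent lay far apart for this gene, so that mean rests largely on a single high array. Any part of COL1A2 in the Detroit results was not tested.

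**Figure D1:**
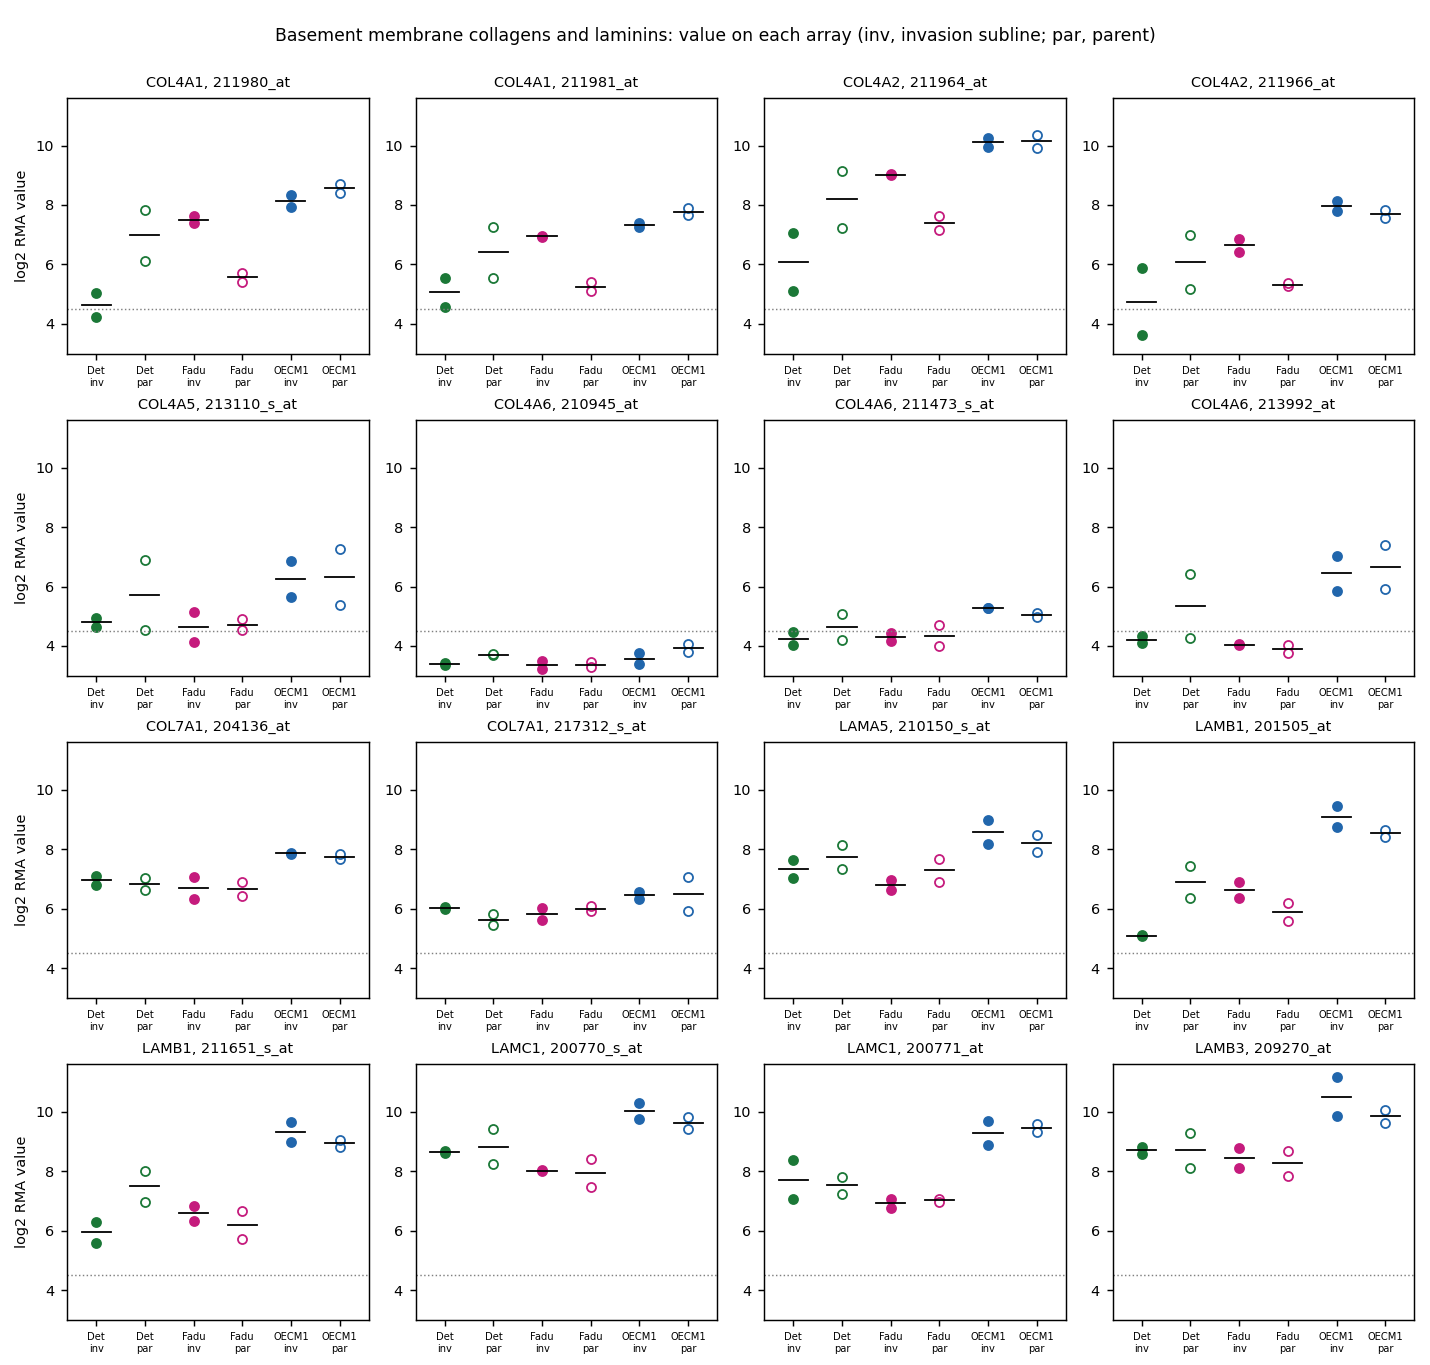
Log2 RMA value (vertical axis) of each of the 16 member probe sets on each array, with the invasion subline (filled) left of its parent (open) for Detroit (green), Fadu (pink) and OECM1 (blue); bars are means of 2 arrays and the dotted line is the limit of 4.52 used in the filter. The OECM1 arrays are the highest in most panels, and COL4A1 and COL4A2 are high in the Fadu subline and low in the arrays labelled Detroit invasion subline.

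COL4A1 and COL4A2 encode the chains of the most widespread collagen IV, and they followed the same order over the groups. COL4A1 (probe set 211980_at) read 5.02 and 4.24 on the arrays labelled Detroit invasion subline, against 7.83 and 6.12 in the Detroit parent. It read 7.61 and 7.38 in the Fadu subline, against 5.72 and 5.41 in the Fadu parent. It read 7.93 and 8.34 in the OECM1 subline, against 8.71 and 8.41 in the OECM1 parent. By group mean the order was OECM1 parent, OECM1 subline, Fadu subline, Detroit parent, Fadu parent and last the arrays labelled Detroit invasion subline. Arrays of neighbouring groups overlapped only between the Fadu subline and the Detroit parent. COL4A2 (211964_at) read 7.07 and 5.11 on the arrays labelled Detroit invasion subline, against 9.15 and 7.22 in the Detroit parent. It read 9.03 and 9.01 in the Fadu subline, against 7.63 and 7.17 in the Fadu parent. It read 10.24 and 9.96 in the OECM1 subline, against 9.93 and 10.35 in the OECM1 parent. Its group means had the order of COL4A1, and here the OECM1 subline and parent overlapped, as did the Detroit parent with the Fadu subline above it and the Fadu parent below it. The second probe sets, 211981_at of COL4A1 and 211966_at of COL4A2, correlated with the first ones at r = 0.975 and 0.977 over the 12 arrays.

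Over the 12 arrays, 211980_at of COL4A1 and 211964_at of COL4A2 correlated at r = 0.967. This is a description, since the points are 6 pairs of duplicates from 3 lines. Among 9000 other genes, each taken by its brightest probe set, COL4A2 was the one most like COL4A1 and COL4A1 the one most like COL4A2. The genes lie head to head on chromosome 13, and the stretch between their start sites is shown because both are read outwards from it. The sequence comes from the RefSeq promoter table (GRCh38.p14, chr13:110307158-110307283, plus strand, on which COL4A2 is read to the right and COL4A1 to the left). Capitals mark matches to CCAAT or GGGCGG on either strand, with no overlap between the motifs.
COL4A1 and COL4A2: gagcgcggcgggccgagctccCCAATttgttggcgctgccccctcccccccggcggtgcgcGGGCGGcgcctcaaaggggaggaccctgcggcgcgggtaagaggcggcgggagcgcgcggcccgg
The stretch of 126 bases held 1 match to CCAAT and 1 to GGGCGG and had 80.2% G or C. Of 35116 promoters in the table, 21.1% held CCAAT and 34.6% held GGGCGG, on either strand, in the window of the same length and place. Such a match is a run of letters and not a measured site.

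COL4A5 and COL4A6 encode collagen IV chains of a second, more restricted network, found in the skin among other epithelia, and were low in all Fadu arrays. COL4A5 (213110_s_at) read 4.65 and 4.95 on the arrays labelled Detroit invasion subline, against 6.90 and 4.54 in the Detroit parent. It read 4.14 and 5.14 in the Fadu subline, against 4.89 and 4.53 in the Fadu parent. It read 5.65 and 6.86 in the OECM1 subline, against 7.27 and 5.39 in the OECM1 parent. Each neighbour in the order of its group means overlapped, and the single high array of the Detroit parent lay among the OECM1 arrays. COL4A6 (213992_at) read 4.10 and 4.32 on the arrays labelled Detroit invasion subline, against 6.42 and 4.27 in the Detroit parent. It read 4.03 and 4.06 in the Fadu subline, against 4.03 and 3.77 in the Fadu parent. It read 5.86 and 7.03 in the OECM1 subline, against 7.38 and 5.93 in the OECM1 parent. The 4 OECM1 arrays and Detroit parent replicate 1 were thus the ones above 4.52. In the Detroit parent and both OECM1 groups the duplicates split alike for these probe sets. Replicate 1 exceeded replicate 2 by 2.36 (COL4A5) and 2.15 (COL4A6) in the Detroit parent and by 1.88 and 1.45 in the OECM1 parent, and the differences were -1.21 and -1.17 in the OECM1 subline. In the Fadu subline they did not, with -0.999 for COL4A5 and -0.04 for COL4A6. The other COL4A6 probe set that was tested, 211473_s_at, stayed between 3.98 and 5.27, and its duplicates differed in the opposite direction to those of COL4A5 in the arrays labelled Detroit invasion subline, the Fadu subline and the Fadu parent.

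COL4A5 and COL4A6 (213992_at) correlated at r = 0.938 over the 12 arrays, again as a description over 6 pairs of duplicates. For COL4A5, COL4A6 was the most similar of the 9000 other genes, and for COL4A6, COL4A5 ranked 3. This pair also lies head to head, on chromosome X, with start sites 380 bases apart, against 127 for the first pair. The part shared by both RefSeq promoter windows (GRCh38.p14, chrX:108439588-108439708, plus strand, with COL4A5 to the right and COL4A6 to the left) is shown for comparison, with capitals as above. COL4A6 has 2 promoters in that source, and the start site and window of the one nearer to COL4A5 were used.
COL4A5 and COL4A6: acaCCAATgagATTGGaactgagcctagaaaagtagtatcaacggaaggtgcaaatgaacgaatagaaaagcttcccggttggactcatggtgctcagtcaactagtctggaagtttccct
This stretch of 121 bases held 2 matches to CCAAT, 1 on each strand, and 0 to GGGCGG, and 44.6% of it was G or C. In the window of the same length and place, 15.0% of the 35116 promoters held CCAAT and 20.8% held GGGCGG. By these probe sets the genes of each pair rose and fell together, while COL4A1 (211980_at) and COL4A5 correlated less, at r = 0.645. The other tested COL4A6 probe set, 211473_s_at, correlated with COL4A5 at r = 0.721 and with LAMB1 (211651_s_at) at r = 0.923. COL4A1 (211980_at) and LAMB1 (201505_at), which are not neighbours, correlated at r = 0.892. Any part of the shared stretches in these correlations was not tested.

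**Figure D2:**
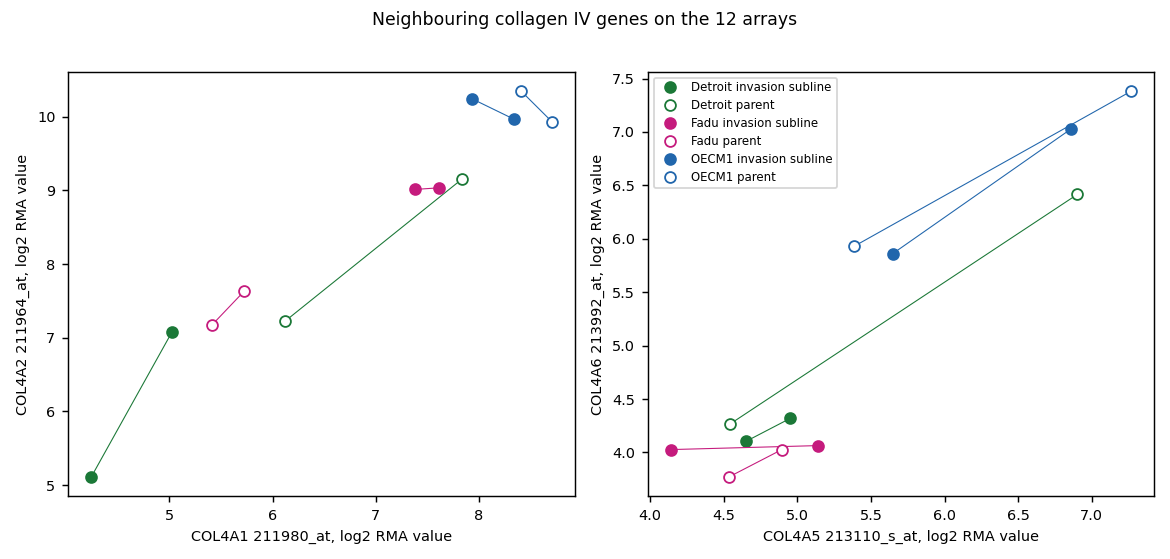
Log2 RMA values of COL4A2 against COL4A1 (left) and of COL4A6 against COL4A5 (right) on the 12 arrays, filled for invasion sublines and open for parents, with a line joining the duplicates of a group. Points rise together in both panels (r = 0.967 and 0.938), and in the right panel the duplicates of the Detroit parent and of both OECM1 groups lie far apart along that rise.

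COL7A1, the collagen of anchoring fibrils, varied little between sublines and parents. Probe set 204136_at read 6.79 and 7.10 on the arrays labelled Detroit invasion subline, against 7.02 and 6.64 in the Detroit parent. It read 7.07 and 6.33 in the Fadu subline, against 6.44 and 6.88 in the Fadu parent. It read 7.82 and 7.89 in the OECM1 subline, against 7.68 and 7.82 in the OECM1 parent. All 4 OECM1 arrays lay above the other 8, whose groups overlapped. The second probe set, 217312_s_at, ran from 5.44 to 7.06, correlated with the first at r = 0.756, and did not separate the OECM1 arrays from the others, since OECM1 parent replicate 1 read 5.93.

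Among the laminins, LAMB1 (beta chain) and LAMC1 (gamma chain) are partners of the LAMA5 alpha chain in a laminin of many epithelia, and all were highest in OECM1. LAMB1 (201505_at) read 5.07 and 5.10 on the arrays labelled Detroit invasion subline, against 7.42 and 6.34 in the Detroit parent. It read 6.91 and 6.35 in the Fadu subline, against 5.58 and 6.20 in the Fadu parent. It read 9.43 and 8.75 in the OECM1 subline, against 8.65 and 8.42 in the OECM1 parent. In each line the subline and parent arrays of this probe set did not overlap, with the subline below its parent in Detroit and above it in Fadu and OECM1. In Fadu 15.5% of all tested probe sets lay above in that way and 17.0% below, and the shares in Detroit and OECM1 are not given here. The second LAMB1 probe set, 211651_s_at, correlated with 201505_at at r = 0.971, although its subline and parent arrays overlapped in Fadu and OECM1. LAMC1 (200771_at) read 7.06 and 8.37 on the arrays labelled Detroit invasion subline, against 7.81 and 7.24 in the Detroit parent. It read 6.78 and 7.07 in the Fadu subline, against 7.07 and 6.98 in the Fadu parent. It read 8.88 and 9.68 in the OECM1 subline, against 9.58 and 9.32 in the OECM1 parent. Subline and parent overlapped in every line, and the OECM1 arrays lay above the rest, as they did for the other LAMC1 probe set, 200770_s_at. LAMA5 (210150_s_at) read 7.02 and 7.65 on the arrays labelled Detroit invasion subline, against 8.15 and 7.33 in the Detroit parent. It read 6.61 and 6.96 in the Fadu subline, against 6.90 and 7.68 in the Fadu parent. It read 8.96 and 8.16 in the OECM1 subline, against 7.91 and 8.47 in the OECM1 parent. All neighbours in the order of LAMA5 overlapped.

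LAMB3, the beta chain of the laminin bound by hemidesmosomes, was also highest in OECM1. It (209270_at) read 8.58 and 8.82 on the arrays labelled Detroit invasion subline, against 9.29 and 8.10 in the Detroit parent. It read 8.78 and 8.12 in the Fadu subline, against 7.85 and 8.68 in the Fadu parent. It read 11.17 and 9.86 in the OECM1 subline, against 9.63 and 10.05 in the OECM1 parent. The Detroit and Fadu groups overlapped with each other, and the 4 OECM1 arrays lay above all 8 of them. Of the 15 tested probe sets, 9 had all 4 OECM1 arrays above the other 8, against 4.42% of all tested probe sets. They were 211980_at of COL4A1, 204136_at of COL7A1, both probe sets each of COL4A2, LAMB1 and LAMC1, and that of LAMB3.

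The parents were compared to see how the lines differed before selection. Values of the basement membrane genes lay higher in OECM1 parent than in Fadu parent cells, and 5 of 15 probe sets passed the test, all higher, namely both of COL4A1, both of LAMB1 and 200771_at of LAMC1. Over all probe sets, 2.43% passed in either direction and 1.32% passed as higher. COL4A1 averaged 8.56 ± 0.211 in the OECM1 parent and 5.57 ± 0.219 in the Fadu parent (211980_at, SD, n = 2 arrays each), a log2 fold change of 2.99 (SE 0.501, adjusted p = 0.0112, limma with Benjamini-Hochberg adjustment over 15124 probe sets). LAMB1 (201505_at) averaged 8.53 ± 0.161 and 5.89 ± 0.440 in the same groups, a log2 fold change of 2.64 (SE 0.425, adjusted p = 0.00907). LAMC1 (200771_at) had a log2 fold change of 2.43 (SE 0.458, adjusted p = 0.0195), the second COL4A1 probe set 2.52 (adjusted p = 0.0257) and the second LAMB1 probe set 2.74 (adjusted p = 0.0126). Both COL4A2 probe sets had log2 fold changes of 2.74 and 2.38 that did not pass (adjusted p = 0.0627 and 0.113), nor did 213992_at of COL4A6 at 2.76 (adjusted p = 0.0543), LAMB3 at 1.58 (adjusted p = 0.175), 204136_at of COL7A1 at 1.09 (adjusted p = 0.146) or LAMA5 at 0.90 (adjusted p = 0.417). The other LAMC1 probe set, 200770_s_at, did not pass at 1.67 (limma, adjusted p = 0.0867), nor did COL4A5 at 1.61 (adjusted p = 0.381). The other tested probe sets of COL4A6 (211473_s_at) and COL7A1 (217312_s_at) gave 0.69 and 0.50 and did not pass (adjusted p = 0.389 and 0.635). All 15 fitted values were above 0, as were 47.0% of all tested probe sets, and their median was 2.38, against -0.03 over all. Without OECM1 parent replicate 2, 1 of the 15 turned below 0.

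These calls rested on 4 arrays. Without Fadu parent replicate 1 or OECM1 parent replicate 1 none of the 15 passed, and the adjusted p was 0.0846 and 0.0728 for COL4A1 (211980_at), 0.125 and 0.0594 for LAMB1 (201505_at), and 0.148 and 0.105 for LAMC1 (200771_at). Without Fadu parent replicate 2, 2 passed, and without OECM1 parent replicate 2, 3 passed.

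**Figure D3:**
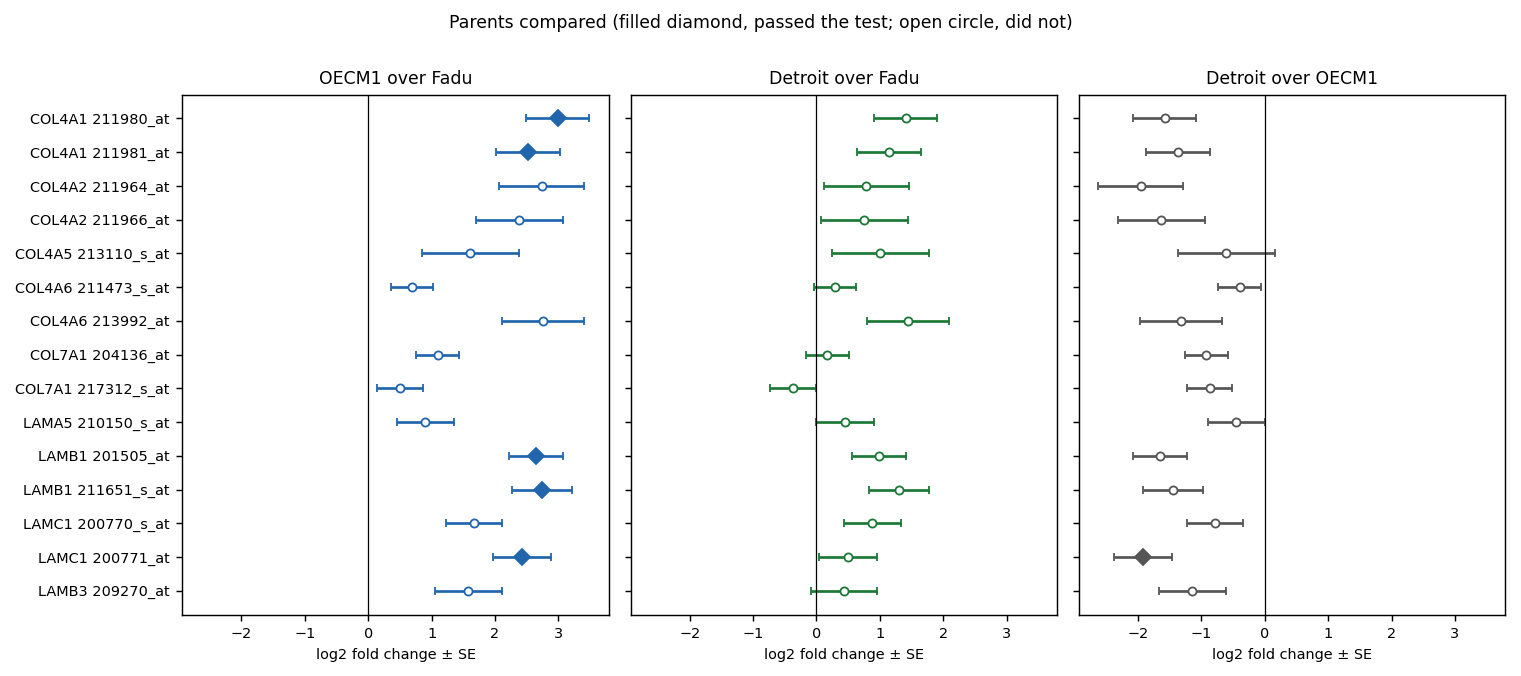
Log2 fold change with its SE (horizontal axis) of the 15 tested probe sets between parents, for OECM1 over Fadu, Detroit over Fadu and Detroit over OECM1; filled diamonds passed an adjusted p of 0.05 and open circles did not. The 15 values lie above 0 in the first panel, with 5 that passed, and below 0 in the third, with 1 that passed.

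By group mean the Detroit parent lay between the other parents for most of these genes, but its replicates differed widely. Against the Fadu parent 0 of 15 probe sets passed, with 5 at an unadjusted p under 0.05, against 2.29% and 14.3% of all tested probe sets. The median log2 fold change of the 15 was 0.78, against 0.02 over all. The values were 1.41 for COL4A1 (211980_at, adjusted p = 0.216), 1.30 for LAMB1 (211651_s_at, adjusted p = 0.226) and 1.44 for COL4A6 (213992_at, adjusted p = 0.345). Without Detroit parent replicate 1 these were 0.55, 0.79 and 0.37, the median was 0.04, 6 of the 15 values changed sign and 0 had an unadjusted p under 0.05. Without Detroit parent replicate 2 they were 2.26, 1.82 and 2.52, the median was 1.53, 9 had an unadjusted p under 0.05, and COL4A1 (211980_at) passed (adjusted p = 0.0335). Against the OECM1 parent 1 of 15 passed, against 3.29% of all tested probe sets (1.85% lower). LAMC1 (200771_at) averaged 7.53 ± 0.406 in the Detroit parent and 9.45 ± 0.188 in the OECM1 parent (SD, n = 2 arrays each), and fell by 1.92 on the log2 scale (SE 0.458, adjusted p = 0.0479). That call held without either array labelled Detroit invasion subline and ended without any 1 of the other 10 arrays, with an adjusted p of 0.0794 to 0.239 when the array left out was one of the 4 compared and of 0.0597 to 0.0841 otherwise. The other LAMC1 probe set, 200770_s_at, had -0.79 (SE 0.444) and did not pass (limma, adjusted p = 0.427). Of the 15 fitted values 0 were above 0, against 54.3% of all, and their median was -1.32, against 0.05 over all. That median was -1.96 without Detroit parent replicate 1 but -0.69 when replicate 2 was left out instead, where 2 of the 15 values turned above 0. The comparisons between parents share arrays with each other.

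In the Detroit comparison, taken as labelled, COL4A1 and LAMB1 were lower on the arrays labelled Detroit invasion subline. Those arrays correlated with the Detroit parent at r = 0.893, whereas the Fadu parent correlated with it at r = 0.913. A difference between lines and one that came with selection therefore cannot be told apart here. By 211980_at, COL4A1 averaged 4.63 ± 0.552 on those arrays and 6.98 ± 1.21 in the Detroit parent (SD, n = 2 arrays each), with a log2 fold change of -2.34 (SE 0.501, adjusted p = 0.0310, limma). Since 1 of those arrays read 4.24, under the limit of 4.52 where values are compressed, the size of this difference is uncertain. By 201505_at, LAMB1 averaged 5.09 ± 0.0258 on the arrays labelled Detroit invasion subline and 6.88 ± 0.761 in the Detroit parent, 3.47-fold lower, with a log2 fold change of -1.80 (SE 0.425, adjusted p = 0.0496). These were the 2 of 15 probe sets that passed, against 3.02% of all tested probe sets (1.72% lower), and 5 of 15 had an unadjusted p under 0.05, against 15.7%. The second probe sets did not pass, with -1.34 for COL4A1 (211981_at, adjusted p = 0.211) and -1.55 for LAMB1 (211651_s_at, adjusted p = 0.117). Both COL4A2 probe sets had values of -2.10 and -1.32 (adjusted p = 0.136 and 0.403). The LAMC1 probe sets gave -0.18 and 0.19, LAMB3 0.00, COL7A1 0.12 and 0.40 and LAMA5 -0.41, with adjusted p from 0.721 to 1.00. The median of the 15 was -0.92, against -0.01 over all, and was 0.00 without Detroit parent replicate 1 but -2.07 when replicate 2 was left out instead.

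The Detroit differences moved with single arrays, Detroit parent replicate 1 in particular. In all 15 member probe sets it read higher than replicate 2, by a median of 1.15, whereas 46.6% of all tested probe sets were higher in replicate 1. No other group split in that way, with 6 to 9 of 15 higher in replicate 1. Without Detroit parent replicate 1 the value of COL4A1 (211980_at) was -1.49 (adjusted p = 0.176) and that of LAMB1 (201505_at) -1.26 (adjusted p = 0.283), while 4 of the 15 values changed sign, among them COL4A5 at 0.26 and 200770_s_at of LAMC1 at 0.40. Leaving out Detroit invasion subline replicate 2 gave -1.95 (adjusted p = 0.152) and -1.82 (adjusted p = 0.134). The COL4A1 call also ended without any 1 of the Fadu arrays or OECM1 subline arrays (adjusted p = 0.0508 to 0.0562), and the LAMB1 call without any 1 array other than Detroit parent replicate 2 (adjusted p = 0.0603 to 0.0775 for the 8 Fadu and OECM1 arrays and 0.0616 without Detroit invasion subline replicate 1). The log2 difference between 3 prime and 5 prime ACTB control probe sets, a measure that varies with RNA quality or labelling, was -0.03 and -0.10 in the Detroit parent and -0.28 and 0.80 on the arrays labelled Detroit invasion subline. With it as a covariate COL4A1 still passed and LAMB1 did not (adjusted p = 0.0548).

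**Figure D4:**
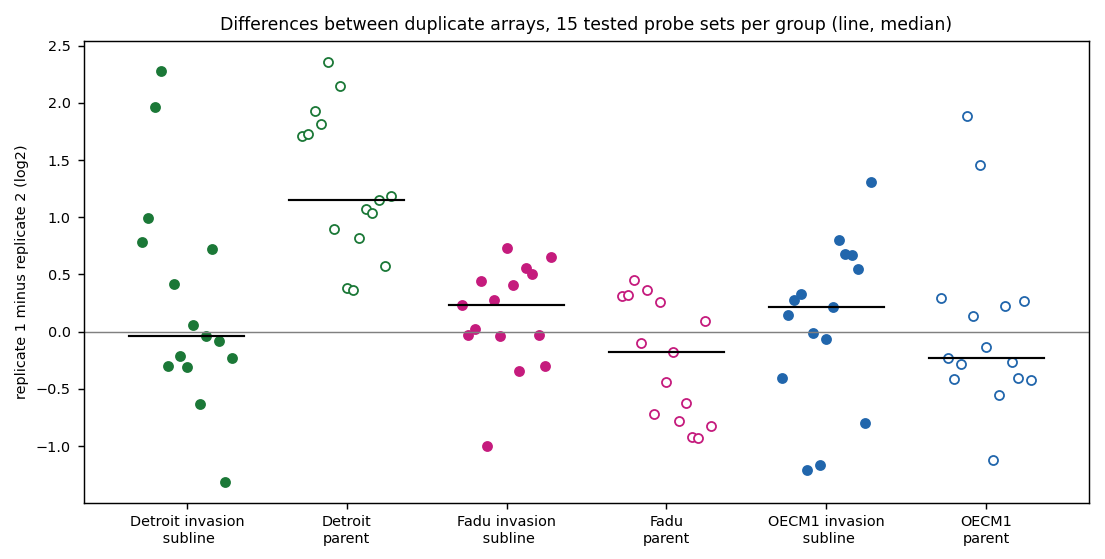
Difference between replicate 1 and replicate 2 (vertical axis, log2) for the 15 tested member probe sets in each group, filled for invasion sublines and open for parents, with the median as a line. In the Detroit parent the 15 points lie above 0, with a median of 1.15, and in every other group they lie on both sides of 0.

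Set against the Fadu parent, which they resembled, the arrays labelled Detroit invasion subline showed no member that passed, 0 of 15, with 0 at an unadjusted p under 0.05, where 0% and 3.69% of all tested probe sets did so (limma). The median log2 fold change was 0.04, against 0.02 over all. The lowest values were -1.31 for COL4A2 (211964_at, SE 0.670) and -0.94 for COL4A1 (211980_at, SE 0.501), and the highest 0.71 for LAMC1 (200770_s_at, SE 0.444). For 11 of 15 probe sets these arrays had a mean nearer to the Fadu parent than to the Detroit parent, against 61.1% of all tested probe sets.

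In the Fadu comparison COL4A1 and COL4A2 were the members with large values, and both probe sets of both genes read higher on both subline arrays than on both parent arrays. COL4A1 (211980_at) averaged 7.50 ± 0.164 in the Fadu subline and 5.57 ± 0.219 in the Fadu parent (SD, n = 2 arrays each), a log2 fold change of 1.93 (SE 0.501). The second COL4A1 probe set gave 1.69 (SE 0.503), and those of COL4A2 gave 1.62 (SE 0.670) and 1.32 (SE 0.686). None of them passed over all probe sets, with an adjusted p of 1.00 for each, and 3 of the 15 members had an unadjusted p under 0.05 (0.00280 and 0.00649 for COL4A1 and 0.0342 for 211964_at of COL4A2). Over all probe sets 0.0198% passed and 1.75% had an unadjusted p under 0.05. The members whose subline arrays both lay above the parent arrays numbered 6 of 15, against 15.5% of all tested probe sets, and 0 lay below, against 17.0%. Besides the collagen IV pair they were 201505_at of LAMB1, at 0.74 (SE 0.425), and 213992_at of COL4A6, at 0.15, both of whose groups averaged under 4.52. LAMB3 had 0.18, the LAMC1 probe sets 0.07 and -0.10, LAMA5 -0.51 and the COL7A1 probe sets 0.05 and -0.18. With only the 4 Fadu arrays in the fit, 0 of 15 passed, and COL4A1 had an adjusted p = 0.227 (211980_at).

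**Figure D5:**
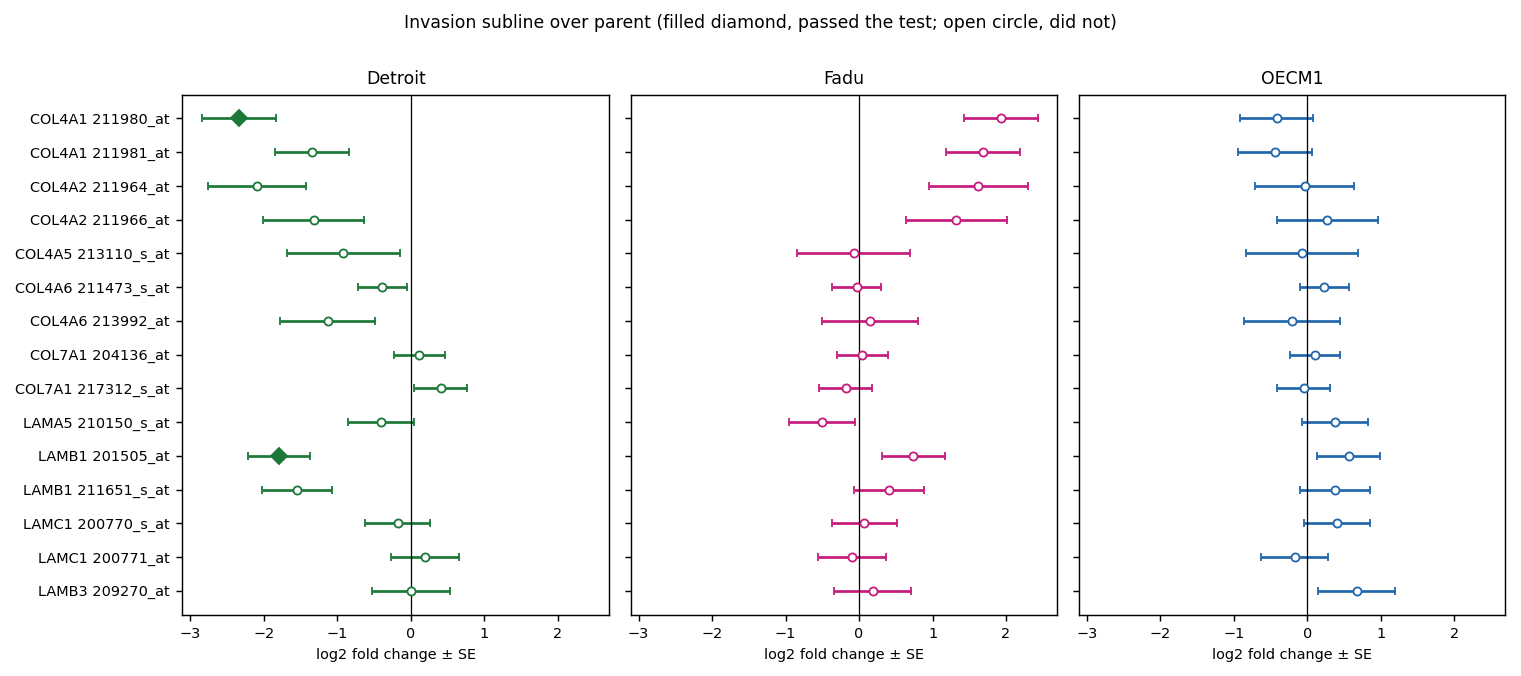
Log2 fold change of invasion subline over parent with its SE (horizontal axis) for the 15 tested probe sets in Detroit, Fadu and OECM1; filled diamonds passed an adjusted p of 0.05 and open circles did not. COL4A1 and COL4A2 lie below 0 in Detroit and above 0 in Fadu, and the 2 values that passed are in Detroit. In OECM1 COL4A1 has the lowest values (-0.42 and -0.44) and COL4A2 lies near 0.

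In the OECM1 comparison 0 of 15 members passed and 0 had an unadjusted p under 0.05, against 0.00661% and 3.29% of all tested probe sets (limma). The highest value was 0.67 for LAMB3 (SE 0.527), whose subline arrays of 11.17 and 9.86 overlapped the parent arrays, and LAMB1 (201505_at) followed at 0.56 (SE 0.425), at 9.09 ± 0.483 in the OECM1 subline and 8.53 ± 0.161 in the OECM1 parent (SD, n = 2 arrays each). COL4A1 had the lowest values, -0.42 (SE 0.501) and -0.44 (SE 0.503), and both of its probe sets read lower on both subline arrays. In the Fadu comparison 17.0% of all tested probe sets read lower in that way, and the OECM1 share is not given here. COL4A2 was near 0, at -0.04 (SE 0.670) and 0.27 (SE 0.686). With 2 arrays a group, an SE of about this size leaves moderate changes undetectable.

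Whether the invasion effects differed between the lines was tested directly. In an F test over the 3 lines 0 of 15 members passed, with 5 at an unadjusted p under 0.05, against 0.602% and 8.20% of all tested probe sets (limma). The lowest adjusted p was that of COL4A1 (211980_at, adjusted p = 0.0530), with effects of -2.34 in Detroit, 1.93 in Fadu and -0.42 in OECM1. It passed when Detroit invasion subline replicate 1 was left out (adjusted p = 0.0253) or Detroit parent replicate 2 was (adjusted p = 0.0110), with array weights (adjusted p = 0.0449) and with 1 probe set per gene (adjusted p = 0.0470). For 3 of 15 members both Fadu subline arrays lay above and both arrays labelled Detroit invasion subline below their parents, against 2.20% of all tested probe sets. The effect in OECM1 minus that in Fadu was -2.35 for COL4A1 (211980_at, SE 0.709), with 0 of 15 members and 0% of all tested probe sets past the threshold, and 2 of 15 members at an unadjusted p under 0.05 against 2.29% of all. Averaged over the 3 lines with the line pairs as replicates, 0 of 15 passed and 0 had an unadjusted p under 0.05, against 0% and 4.26% of all tested probe sets, and the values ran from -0.40 for COL4A6 (213992_at, SE 0.269) to 0.28 for LAMB3 (SE 0.218). Their median was -0.06, against -0.01 over all. Without the Detroit pair it was 0.24, against -0.01 over all, and 7 of the 15 values changed sign. In that fit 0 of 15 passed and 2 had an unadjusted p under 0.05 (limma), as did 814 of the 15124 tested probe sets.

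Other genes of basement membrane assembly and anchorage were read from a list of 52 gene names, of which 42 had a probe set of their own and 33 were tested, each by its brightest probe set. The list held further matrix components, receptors, linkers inside the cell and enzymes of collagen processing. In Detroit 1 of 33 passed, against 3.02% of all tested probe sets, with 4 at an unadjusted p under 0.05, against 15.7%. In Fadu 0 of 33 passed, with 1 at an unadjusted p under 0.05, against 1.75% of all, and in OECM1 0 passed, with 2 at an unadjusted p under 0.05, against 3.29% (limma). The gene that passed in Detroit was ITGA2, the alpha subunit of a collagen receptor, which read 5.15 and 4.89 on the arrays labelled Detroit invasion subline, against 7.83 and 6.29 in the Detroit parent (log2 fold change -2.04, SE 0.434, adjusted p = 0.0303). Its call ended without Detroit parent replicate 1 (-1.27, adjusted p = 0.161), when replicate 2 of the arrays labelled Detroit invasion subline was left out (adjusted p = 0.123) and without any 1 Fadu array (adjusted p = 0.0509 to 0.0562). The medians of the 33 were -0.19 in Detroit, 0.07 in Fadu and 0.29 in OECM1, against -0.01, -0.01 and 0.00 over all tested probe sets.

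Between parents, 1 of the 33 passed in OECM1 against Fadu and 1 in Detroit against OECM1, where 2.43% and 3.29% of all tested probe sets passed, shares like those of the list. ITGA6, the alpha subunit of the laminin receptor of hemidesmosomes, read 10.33 and 9.45 in the OECM1 parent, against 7.88 and 7.31 in the Fadu parent (log2 fold change 2.29, SE 0.496, adjusted p = 0.0390). SERPINH1, the chaperone that collagens need to fold, had a difference of the opposite sign to that of the members in the second of these comparisons. It read 11.20 and 9.60 in the Detroit parent, against 8.25 and 7.17 in the OECM1 parent (log2 fold change 2.70, SE 0.553, adjusted p = 0.0249), and the OECM1 subline arrays read 7.46 and 7.71. The ITGA6 call ended without either Fadu parent array (adjusted p = 0.150 and 0.238), without OECM1 parent replicate 1 (adjusted p = 0.192) and without any 1 of the Fadu or OECM1 subline arrays (adjusted p = 0.0501 to 0.0698), and the SERPINH1 call without Detroit parent replicate 1 (1.90, adjusted p = 0.153) or OECM1 parent replicate 2 (adjusted p = 0.0938).

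For each member the gene outside the list with the most similar pattern over the 12 arrays was found by Pearson correlation among 9000 genes, as a description in which differences between lines weigh most. COL4A1 was most like PLEK2 (r = 0.933), a pleckstrin family gene, and COL4A2 most like CTNNAL1 (r = 0.933), a relative of alpha catenin. COL4A5 and COL4A6 shared ADAMTS1, a secreted protease gene, at r = 0.931 and 0.965. LAMB1 was most like ABCC1 (r = 0.972), a drug efflux pump gene, and LAMC1 most like TRAF4 (r = 0.959), a signalling adaptor gene. LAMB3 was most like ITGA5 (r = 0.948), the alpha subunit of a fibronectin receptor, LAMA5 like LTBP1 (r = 0.948), which binds latent TGF-beta, and COL7A1 like POLM (r = 0.961), a DNA polymerase gene. Within the members, LAMC1 and LAMB3 were each other's nearest, at r = 0.945.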

How the data were processed

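The deposited table holds log2 values for 22283 probe sets on 12 arrays. The authors made them with RMA and used Partek, version 7, per the submitters' processing notes. Genome build and annotation are not given in the sources used here. The table has no missing values and no detection calls, and 0 columns were left unused. Arrays have no read depth, and their number limits the precision.

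Genes were assigned from the platform annotation, which gives 1 symbol to 19065 of 22215 non-control probe sets. The members, gene lists and tests were chosen with earlier results of these data known. The named genes are all members, the gene outside the list most like each member, and members of a list of other basement membrane genes that passed, up to 4 per comparison.

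Means of the 6 groups were fitted on all 12 arrays with limma 3.58.1 in R 4.3.3 (empirical Bayes moderation with an intensity trend), and p-values received Benjamini-Hochberg adjustment over 15124 probe sets, with a threshold of 0.05. The average over lines used the 6 group means, blocked by line, except with a replicate block, where it was fitted on the 12 arrays. Steps were tested on simulated data. Alternatives were no filter, 1 probe set per gene, median centring, no trend, array weights, the ACTB ratio, a replicate block, only the arrays of the line, the average without Detroit, and each array left out in turn. Replicate numbers are shared between groups in the labels, which name no shared culture or day. Promoter sequences are from RefSeq (GRCh38.p14), whose table held all 10 members.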

Additional observations from a re-analysis of the deposited data

Results flagged for a closer look

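For a single probe set in each of 3 genes, all subline arrays lay on one side of their parent arrays in Detroit and on the other side in another line. The second probe sets of COL4A1 (211981_at) and COL4A2 (211966_at) had subline and parent arrays that overlapped in Detroit. That of LAMB1 (211651_s_at) had such an overlap in Fadu and OECM1. COL4A1 (211980_at) lay above its parent in Fadu and below it in Detroit, and the effects differed by 4.27 on the log2 scale. It also lay below its parent in OECM1, where the effect in OECM1 minus that in Fadu, -2.35, was tested and did not pass (limma, adjusted p = 1.00). COL4A2 (211964_at) lay above its parent in Fadu and below it in Detroit, with a difference of 3.72. LAMB1 (201505_at) lay above its parent in Fadu and in OECM1 and below it in Detroit, with differences of 2.53 and 2.36. The differences from Detroit were not tested pair by pair, and the F test over the 3 lines passed for none of these probe sets (adjusted p = 0.0530 for COL4A1, 0.298 for COL4A2 and 0.165 for LAMB1). For 3 of the 15 members, Fadu lay above and Detroit below, as did 2.20% of all tested probe sets.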

How the results depend on the processing

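In the Fadu, OECM1 and average comparisons, in the OECM1 effect minus the Fadu effect, and for the Detroit subline arrays against the Fadu parent, 0 members passed under all alternatives run. For Detroit against its parent, 2 members passed, 1 with no filter, 1 probe set per gene, median centring, the ACTB ratio or the replicate block, 0 with array weights or only the 4 Detroit arrays, and 0 to 3 with 1 array left out. For OECM1 against Fadu parents, 5 passed, 3 with 1 probe set per gene, 8 with the ACTB ratio, 6 with the replicate block and 0 to 8 with 1 array left out. For Detroit against OECM1 parents, 1 passed, 0 with no filter, 1 probe set per gene, centring, array weights or the replicate block, and 0 to 2 with 1 array left out. For Detroit against Fadu parents 0 to 1 passed with 1 array left out, and in the F test 0 passed, 1 with 1 probe set per gene or array weights and 0 to 2 with 1 array left out. The cause was not tested, except that 1 probe set per gene leaves 9 members. No difference that passed changed sign under an alternative, but other member values did, up to 4 of 15 in Detroit, 5 in Fadu, 4 in OECM1, 6 in Detroit against Fadu parents and for the Detroit subline arrays against the Fadu parent, 2 in Detroit against OECM1 parents, 1 in OECM1 against Fadu parents, 4 in the OECM1 effect minus the Fadu effect and 7 in the average, each with arrays left out.

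Replicate numbers did not pair the arrays. The differences between duplicates of subline and parent correlated at r = -0.17 in Detroit, -0.41 in Fadu and -0.40 in OECM1, and with crossed numbers as a block, chosen after seeing the data, 1 member passed in Detroit, 2 in Detroit against OECM1 parents and 5 in OECM1 against Fadu parents. Over all probe sets, calls in Detroit numbered 457, and 44 with only the Detroit arrays, 183 with the replicate block, 262 with array weights, 749 with crossed numbers and 174 to 1366 with 1 array left out. For OECM1 against Fadu parents they were 367, and 133 to 654 under the other settings and 71 to 611 with 1 array left out. For Detroit against Fadu parents they were 347, and 114 to 756 and 84 to 551. For Detroit against OECM1 parents they were 497, and 214 to 823 and 219 to 766. In the F test they were 91, and 30 to 146 and 43 to 328, and in Fadu 3, with 0 to 5, and in OECM1 1, with 0 to 6. For the Detroit subline arrays against the Fadu parent they were 0, with 0 to 306, the highest without its replicate 1, for the OECM1 effect minus the Fadu effect 0, with 0 to 1, and for the average 0, with 0 to 65. Duplicates limit what these arrays can detect.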

Other observations

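PXDN, which encodes peroxidasin, an enzyme that cross-links collagen IV, was picked out after its values were seen. It read 5.66 and 5.78 on the arrays labelled Detroit invasion subline, against 4.62 and 4.99 in the Detroit parent. It read 6.97 and 7.67 in the Fadu subline, against 5.87 and 5.56 in the Fadu parent, and 8.47 and 7.96 in the OECM1 subline, against 6.84 and 5.03 in the OECM1 parent. Both subline arrays lay above both parent arrays in each line. In Fadu alone 15.5% of all tested probe sets did so, and the share that did so in all 3 lines was not counted. The log2 fold changes of PXDN were 0.92 (SE 0.505) in Detroit, 1.60 in Fadu and 2.28 in OECM1. None passed over all probe sets (limma, adjusted p = 0.440, 1.00 and 0.385), nor did the average over the line pairs (1.60, SE 0.293, adjusted p = 0.849). The OECM1 value was 3.18 (adjusted p = 0.0447) without OECM1 parent replicate 1 and 1.38 without replicate 2.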
